A study of Arabidopsis thaliana with 9 samples.

Results

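The ERF-VII transcription factors and the proteins that tie their stability to oxygen were followed here as 10 genes of Arabidopsis thaliana. They are the ERF-VII genes RAP2.12, RAP2.2, RAP2.3, HRE1 and HRE2, the plant cysteine oxidase genes PCO1 and PCO2, the ubiquitin ligase gene PRT6, and the low-oxygen-induced regulators HRA1 and LBD41. They were taken by gene identifier, and all 10 were listed among the 22555 genes of the deposited tables. All 10 also reached 1 FPKM (fragments scaled to gene length and library size) in at least 3 libraries, the filter that left 13679 genes for testing. The 10 genes were chosen with their values in these same 9 libraries already known. Their levels and differences are therefore a description, and no p-value is printed for any of them. Counts of them past a threshold of the fit over all genes are given beside the share of all tested genes and support nothing.

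RNA was sequenced from freshly harvested seeds in 3 groups of 3 libraries each. The first group was labelled rgl2-13 DOF6ioex and was treated with estradiol; rgl2-13 is an allele of RGL2, a DELLA repressor of gibberellin responses. The second was DOF6ioex treated with estradiol, and the third was DOF6ioex in mock solution, which the treatment labels give as water. Every group carried the DOF6ioex construct, through which estradiol induces the DOF-type transcription factor gene DOF6. Imbibition lasted 8 h in every group, and β-estradiol was used at 50 µM. No line without the construct was treated, so an effect of estradiol itself and an effect of DOF6 cannot be told apart. The promoter that drives the construct, the number of transgenic lines and the plants behind each library could not be read from the labels, so p-values measure only the spread between these samples, which may be technical.

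In the cells of a plant with enough oxygen, plant cysteine oxidases use molecular oxygen to oxidise the cysteine that heads each ERF-VII protein once its first methionine has been removed. Arginyl transferases then add an arginine, the ubiquitin ligase PRT6 recognises the new end, and the protein is degraded by the proteasome. When oxygen falls, the ERF-VII proteins persist and switch on genes of fermentation and low-oxygen survival, among them genes of PCO1 and PCO2, which close the loop. In Arabidopsis seeds, loss of PRT6 is known to make germination more sensitive to abscisic acid, and ERF-VII proteins are known to act on ABI5, a regulator of abscisic acid responses.

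The cysteine that is sensed lies at the second codon of each of the 5 ERF-VII genes, and the first 24 coding bases are shown because they hold it. The bases are from the RefSeq TAIR10.1 genome and its annotation, 5′ to 3′ on the coding strand, with the cysteine codon in capitals.
RAP2.12: atgTGTggaggagctataatatcc
RAP2.2: atgTGTggaggagctataatctcc
RAP2.3: atgTGTggcggtgctattatttcc
HRE1: atgTGCggaggagctgtaatttcc
HRE2: atgTGTgggggagctatcatttct
In TAIR10.1 these starts lie in the first coding exon of AT1G53910 (RAP2.12, chr1:20135242-20135265, plus strand), AT3G14230 (RAP2.2, chr3:4738977-4739000, minus strand), AT3G16770 (RAP2.3, chr3:5705784-5705807, plus strand), AT1G72360 (HRE1, chr1:27241904-27241927, plus strand) and AT2G47520 (HRE2, chr2:19503467-19503490, minus strand). HRE1 has 3 annotated transcripts with 2 distinct coding starts, and the start of the longest is shown. HRE1 used TGC for the cysteine and the other 4 genes TGT. A cysteine at the second codon was found in 205 of 27390 protein-coding genes (0.748%), and in none of the other 5 genes described here, which are HRA1 (AT3G10040), PCO1 (AT5G15120), PCO2 (AT5G39890), LBD41 (AT3G02550) and PRT6 (AT5G02310).

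DOF6 stood at 52.25, 21.43 and 27.54 FPKM in the rgl2-13-labelled DOF6ioex libraries, at 33.73, 32.05 and 36.0 FPKM in DOF6ioex estradiol libraries and at 0.64, 0.86 and 0.41 FPKM in mock libraries. RGL2 was at 17.92, 16.15 and 18.82 FPKM in the rgl2-13-labelled DOF6ioex libraries, against 8.02, 7.57 and 10.17 FPKM in DOF6ioex estradiol libraries and 10.43, 13.08 and 8.86 FPKM in mock libraries. A gene level cannot show whether an allele makes protein, but RGL2 RNA was higher under the mutant label than in DOF6ioex estradiol libraries (log2 difference 0.97 ± 0.14, limma adjusted p = 0.0184), and these libraries are called by their label throughout. Replicate 1 of the rgl2-13-labelled DOF6ioex libraries stood apart: its score on the first principal component (45.61% of the variance) was -37.25, and the other 8 libraries lay between -7.13 and 12.85. It was the highest of its group for 9 of the 10 genes and for 71.4% of all tested genes. The summed level of 7 storage protein, oil body and late embryogenesis genes ran from 59482 to 63396 FPKM in the rgl2-13-labelled DOF6ioex libraries, from 68403 to 74434 in DOF6ioex estradiol libraries and from 69476 to 94762 in mock libraries, so its sum in the first group overlapped neither of the others, and CRU2 of this list was called lower there than in mock libraries (limma adjusted p = 0.0451). Of 3 endosperm genes, EPR1 was at 33815 to 67414 FPKM, 37193 to 50203 FPKM and 42103 to 54200 FPKM in the same order of groups, while ZOU and NAC25 stayed under 0.1 FPKM. The seed coat gene BAN was at 0.07 FPKM or less, and the other 2 seed coat genes were not analysed here. The sum of 4 leaf genes was at most 39.79 FPKM. The part these levels play in the results was not tested, and in whole seeds fewer cells of a type cannot be told apart from less RNA per cell.

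The ERF-VII genes fell into 3 abundant members and 2 scarce ones in every library. RAP2.3 averaged 618.7 FPKM over the 9 libraries, above 99.2% of the tested genes, RAP2.12 180.6 FPKM and RAP2.2 151.6 FPKM. HRE2 averaged 7.13 FPKM and HRE1 4.83 FPKM. RAP2.12, RAP2.2 and RAP2.3 together made up 98.3% to 99% of the summed ERF-VII FPKM of a library, and RAP2.3 alone 58.2% to 69.2%. From other work the RAP2 genes are known to be transcribed in the presence of oxygen, and HRE1 and HRE2 to be induced when it is short. Among the other genes the order of mean levels was LBD41 at 203.3 FPKM, PCO1 at 83.5, PCO2 at 51.1, HRA1 at 45.7 and PRT6 at 11.3 FPKM. Over the 9 libraries LBD41 (142.5 to 285.8 FPKM) overlapped RAP2.12 (164.3 to 199.8 FPKM), which overlapped RAP2.2 (122.2 to 213.2 FPKM), and RAP2.3 (508.6 to 670.5 FPKM) lay above all 3. PCO1 (54.61 to 127 FPKM) overlapped RAP2.2 above it and PCO2 (33.29 to 69 FPKM) below it, and PCO2 overlapped HRA1 (27.93 to 71.28 FPKM). PRT6 (9.16 to 13.43 FPKM) lay below all of these and overlapped HRE2 (5.24 to 10.69 FPKM), which overlapped HRE1 (3.2 to 7.36 FPKM).

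**Figure D1:**
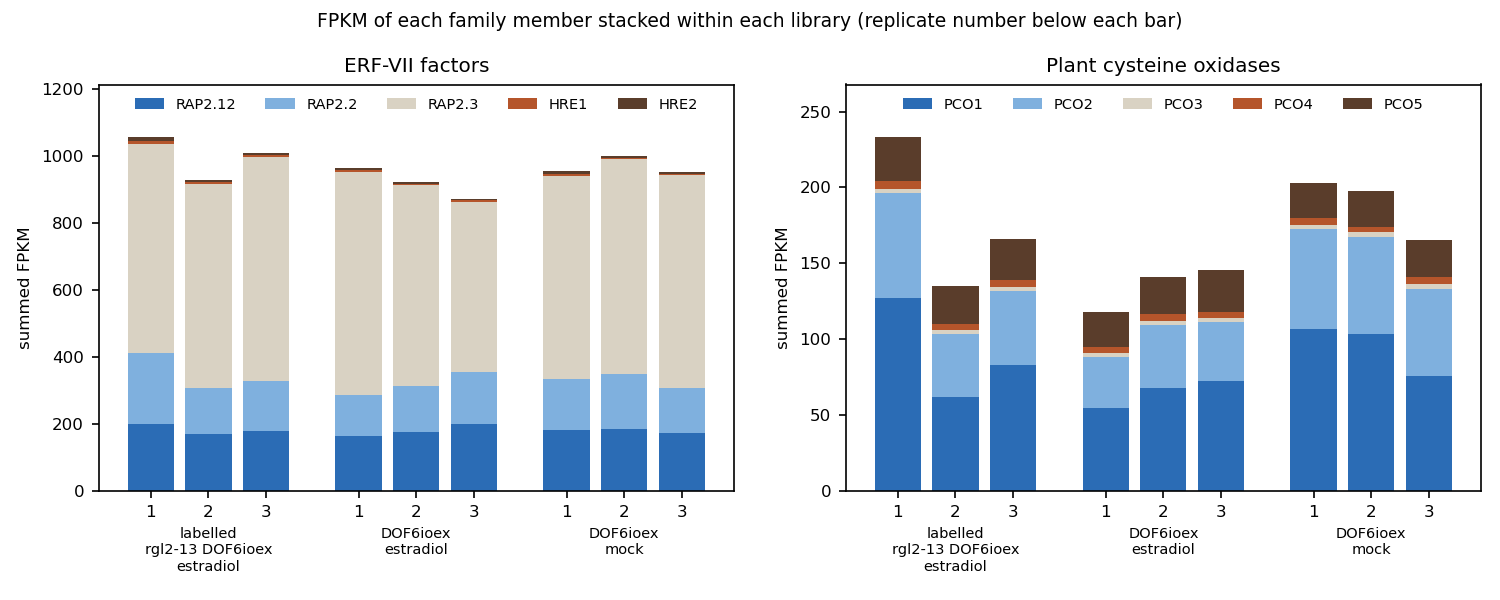
Summed FPKM of the 5 ERF-VII genes (left) and of the 5 plant cysteine oxidase genes (right), stacked by gene on linear axes from 0, with 1 bar per library and its replicate number below it. RAP2.3 fills most of each ERF-VII bar and the bars run from 874 to 1056 FPKM, while the cysteine oxidase bars run from 118 to 146 FPKM in DOF6ioex estradiol libraries and from 165 to 203 FPKM in mock libraries, and most of that gap lies in the PCO1 and PCO2 segments.

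Induction of DOF6 was asked about first, with DOF6ioex seeds in estradiol against DOF6ioex seeds in mock. RAP2.12, RAP2.2, RAP2.3 and HRE2 overlapped between the groups, while HRA1, LBD41, PCO2 and PCO1, which are induced by ERF-VII factors when oxygen is low, were each lower in every estradiol library than in every mock library. HRA1 averaged 46.8% of its mock level, LBD41 56.4%, PCO2 60.3% and PCO1 68.2%. HRE1 and PRT6 were higher in every estradiol library than in every mock library, at 138% and 119% of the mock mean. HRA1 was the only gene of the 10 past the threshold of the fit over all genes (a Benjamini-Hochberg adjusted p under 0.05 in limma), and it was lower; 0.124% of all tested genes were called lower and 0.0292% higher. Groups that do not overlap were found lower for 4 of the 10 genes and higher for 2, against 4.31% and 10.6% of all tested genes, and an unadjusted limma p under 0.05 was found for 6 of the 10 (HRA1, LBD41, PCO2, PCO1, HRE1 and PRT6), against 6.82% of all tested genes. Since the genes were chosen on these values nothing is read from these counts. The median log2 difference of the 10 genes was -0.19, beside 0.04 over all tested genes.

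RAP2.12, the ERF-VII factor best known for activating fermentation genes, was at 164.3, 175.1 and 199.8 FPKM in DOF6ioex estradiol libraries and at 181.9, 183.9 and 173.6 FPKM in mock libraries. The mock values lay inside the range of the estradiol values, and the difference of mean log2(FPKM + 1) was -0.01 ± 0.10 (SE, with a 95% interval of -0.21 to 0.20). RAP2.12 had the smallest range of group means of the 10 genes, smaller than that of all but 0.9% of the tested genes. RAP2.2, a close relative that is known to share targets with RAP2.12, was at 122.2, 137.3 and 153.7 FPKM in estradiol libraries and at 152.9, 164.5 and 132.7 FPKM in mock libraries. The groups overlapped, with a log2 difference of -0.12 ± 0.15 (interval -0.46 to 0.21). RAP2.3, also known as a partner of DELLA proteins in growth control, was at 667, 600.4 and 508.6 FPKM in estradiol libraries and at 607, 642.3 and 637.8 FPKM in mock libraries. The estradiol libraries spread more widely (SD 79.5 FPKM) than the mock libraries (SD 19.2 FPKM) and enclosed them, and the log2 difference was -0.10 ± 0.10 (interval -0.32 to 0.13).

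HRE1, an ERF-VII factor that low oxygen induces, was at 4.5, 4.74 and 6.15 FPKM in DOF6ioex estradiol libraries and at 4.07, 3.2 and 3.91 FPKM in mock libraries. The lowest estradiol library lay above the highest mock library by less than the spread within the estradiol group (SD 0.892 FPKM), and the log2 difference was 0.37 ± 0.16 (interval 0.01 to 0.73). HRE1 shares 124 bases with AT1G72370 on the opposite strand in TAIR10.1, a gene at 213.7 ± 11.6 FPKM in estradiol libraries and 237.1 ± 28.5 FPKM in mock libraries (SD, n = 3 each), and without a stated strand setting reads of both genes cannot be told apart there. HRE2, the other induced ERF-VII factor, was at 5.51, 7.01 and 5.24 FPKM in estradiol libraries and at 9.3, 7.02 and 5.73 FPKM in mock libraries. These groups overlapped, with a log2 difference of -0.26 ± 0.18 (interval -0.66 to 0.14), so the fitted differences of HRE1 and HRE2 had opposite signs. HRE1 per HRE2 was 0.817, 0.676 and 1.17 in estradiol libraries and 0.438, 0.456 and 0.682 in mock libraries, which overlap.

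PCO1 and PCO2 encode oxygen-consuming oxidases whose transcripts are known to accumulate when oxygen is short. PCO1 was at 54.61, 67.43 and 72.52 FPKM in DOF6ioex estradiol libraries and at 106.5, 103 and 75.74 FPKM in mock libraries. The highest estradiol library and the lowest mock library differed little, and the log2 difference was -0.54 ± 0.22 (interval -1.02 to -0.06). PCO2 was at 33.29, 41.55 and 38.39 FPKM in estradiol libraries and at 65.91, 64.43 and 57.53 FPKM in mock libraries. The PCO2 groups were further apart than their spread (SD 4.17 and 4.47 FPKM), with a log2 difference of -0.72 ± 0.16 (interval -1.07 to -0.37). The other 3 family members, PCO3, PCO4 and PCO5, were not among the 10 genes; PCO4 and PCO5 are known to be transcribed also when oxygen is plentiful. PCO3 averaged 3.07 ± 0.176 FPKM in estradiol libraries and 3.08 ± 0.24 FPKM in mock libraries (SD, n = 3 each), PCO4 4.08 ± 0.505 and 4.21 ± 0.313 FPKM, and PCO5 25.1 ± 2.19 and 23.5 ± 0.568 FPKM. None of the 3 was called, and each pair of groups overlapped. PCO1 and PCO2 made up 74.4%, 77.5% and 76.1% of the summed FPKM of the 5 oxidase genes in estradiol libraries and 85.1%, 84.7% and 80.7% in mock libraries, without overlap.

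HRA1, a trihelix factor that is known to bind RAP2.12 and restrain it, was at 31.28, 33.02 and 27.93 FPKM in DOF6ioex estradiol libraries and at 71.28, 63.9 and 61.77 FPKM in mock libraries. Every estradiol library held less HRA1 than any mock library by a gap wider than the spread of either group, and the log2 difference was -1.07 ± 0.17 (interval -1.43 to -0.71). LBD41, a LOB-domain transcription factor gene of the low-oxygen response, was at 159.8, 159.8 and 142.5 FPKM in estradiol libraries and at 272.5, 285.8 and 261.5 FPKM in mock libraries. The LBD41 groups were likewise further apart than their spread, with a log2 difference of -0.82 ± 0.14 (interval -1.14 to -0.51). Set against the transcript of its target factor within each library, HRA1 stood at 0.19, 0.189 and 0.14 FPKM per FPKM of RAP2.12 in estradiol libraries and at 0.392, 0.347 and 0.356 in mock libraries. LBD41 per RAP2.12 was 0.973, 0.913 and 0.713 in estradiol libraries and 1.5, 1.55 and 1.51 in mock libraries. Neither ratio overlapped between groups. RAP2.12 averaged 179.7 FPKM in estradiol libraries and 179.8 FPKM in mock libraries, so the ratios repeat the differences of HRA1 and LBD41 and add nothing to them.

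PRT6, the ligase at the end of the pathway, was at 11.84, 11.27 and 12.93 FPKM in DOF6ioex estradiol libraries and at 10.31, 9.16 and 10.7 FPKM in mock libraries. The groups did not overlap, but the gap between them was smaller than the spread within either (SD 0.844 and 0.801 FPKM), and the log2 difference was 0.24 ± 0.10 (interval 0.01 to 0.46). PRT6 shares 150 bases with AT5G02320 (MYB3R-5) on the opposite strand, which averaged 3.29 ± 0.18 FPKM in estradiol libraries and 3.03 ± 0.219 FPKM in mock libraries (SD, n = 3 each). The other 8 genes overlap no annotated gene in TAIR10.1.

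**Figure D2:**
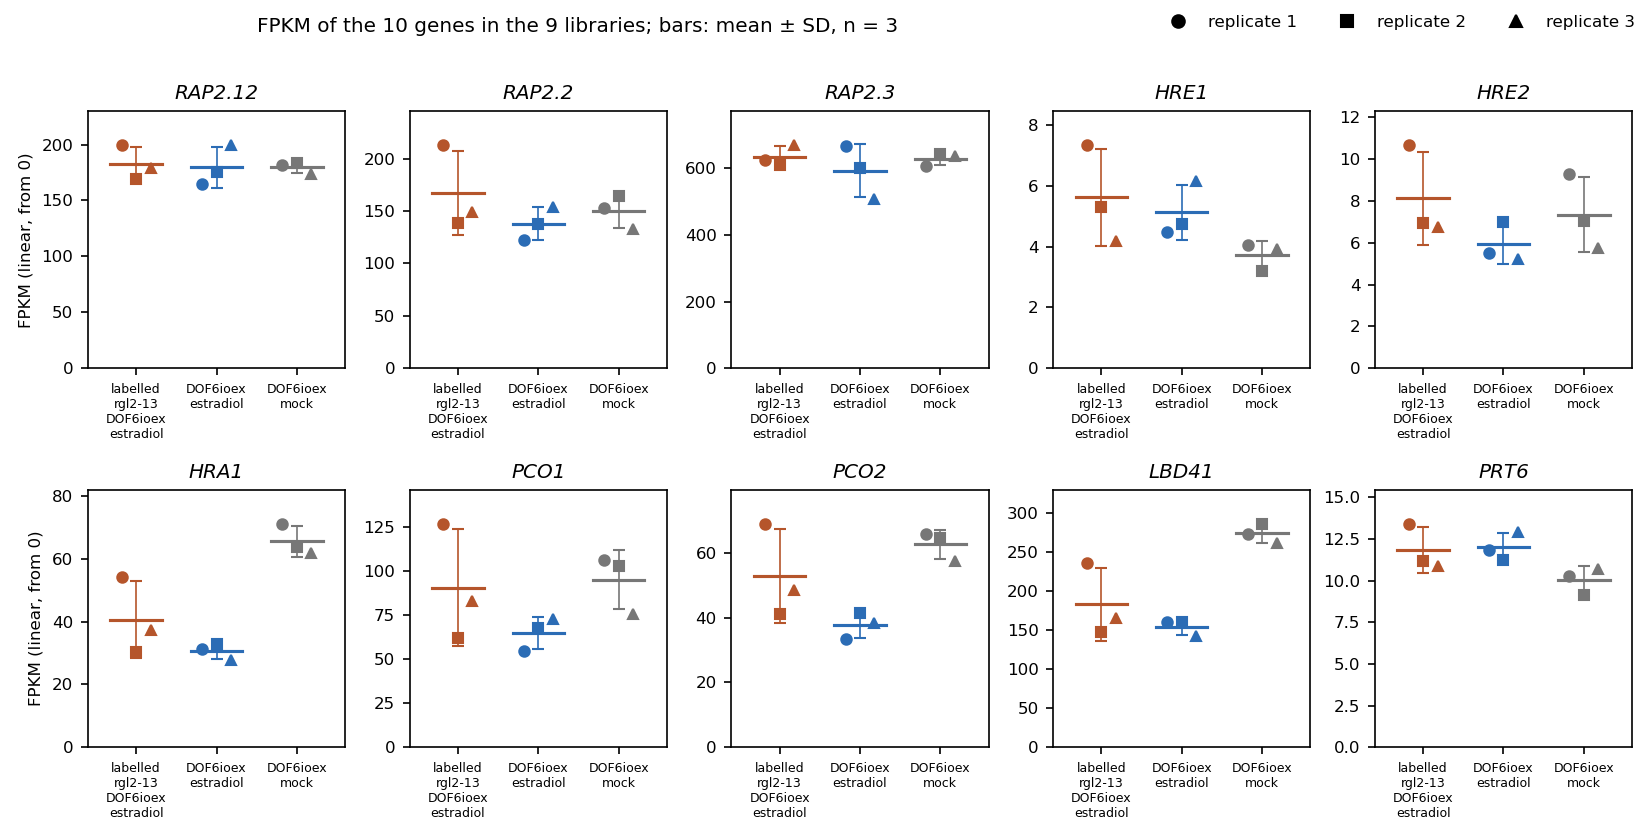
FPKM (linear axes from 0) of each of the 10 genes in the 9 libraries, by group; circles, squares and triangles are replicates 1, 2 and 3, and bars are the mean ± SD (n = 3). HRA1 and LBD41 sit lower in all 3 DOF6ioex estradiol libraries than in the mock libraries, the RAP2 genes overlap throughout, and replicate 1 of the rgl2-13-labelled DOF6ioex libraries is the highest of its group in 9 of the 10 panels.

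The call of HRA1 depended on single libraries. Its log2 difference stayed between -1.12 and -1.01 over 16 alternative settings, but it missed the threshold when any 1 of the 6 DOF6ioex libraries was left out. LBD41 and PCO2 passed it as well when replicate 1 or replicate 2 of the rgl2-13-labelled DOF6ioex libraries, which enter the comparison through the shared estimate of the spread alone, was left out, with either of the other scalings of the libraries, and in a fit on the 6 DOF6ioex libraries alone.

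The rgl2-13-labelled DOF6ioex libraries were next set against DOF6ioex, both in estradiol. None of the 10 genes was called, against 0.161% of all tested genes (0.139% higher and 0.0219% lower), 1 of the 10 (PCO2) had an unadjusted limma p under 0.05 where 15.2% of all tested genes did, and the groups overlapped for all 10, where 15.8% of all tested genes were higher without overlap and 4.96% lower. The fitted differences of 9 of the 10 genes were above 0, but the median of all tested genes was itself 0.11 in this comparison. The median of the 10 genes was 0.24. Relative to the median of all genes PCO2 lay higher by 0.34, PCO1 by 0.32, HRE2 by 0.27, HRA1 by 0.25, RAP2.2 by 0.15 and LBD41 by 0.11 on the log2 scale. RAP2.3 lay at 0.00 relative to it, and HRE1 (-0.01), RAP2.12 (-0.08) and PRT6 (-0.13) lay below it.

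HRA1 was at 54.2, 30.28 and 37.36 FPKM in the rgl2-13-labelled DOF6ioex libraries, against the 27.93 to 33.02 FPKM of DOF6ioex estradiol libraries. PCO2 was at 69, 41.13 and 48.45 FPKM against 33.29 to 41.55 FPKM, and PCO1 at 127, 61.97 and 82.91 FPKM against 54.61 to 72.52 FPKM. LBD41 was at 235.3, 147.1 and 165.7 FPKM against 142.5 to 159.8 FPKM. In each of these 4 genes replicate 1 of the rgl2-13-labelled DOF6ioex libraries was the highest of the 6 libraries and replicate 2 lay within the range of the DOF6ioex libraries. With replicate 1 the log2 differences were 0.35 ± 0.17 for HRA1, 0.45 ± 0.16 for PCO2, 0.42 ± 0.22 for PCO1 and 0.22 ± 0.14 for LBD41. Without it they were 0.13 for HRA1, 0.24 for PCO2, 0.15 for PCO1 and 0.02 for LBD41.

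Replicate 1 was also the highest of its group for RAP2.2, HRE2, HRE1 and RAP2.12 among the ERF-VII genes. RAP2.2 was at 213.2, 138.8 and 149 FPKM in the rgl2-13-labelled DOF6ioex libraries, where replicates 2 and 3 lay within the 122.2 to 153.7 FPKM of DOF6ioex estradiol libraries. HRE2 was at 10.69, 6.93 and 6.74 FPKM against 5.24 to 7.01 FPKM, and HRE1 at 7.36, 5.32 and 4.19 FPKM against 4.5 to 6.15 FPKM. RAP2.12 was at 199.5, 168.9 and 178.8 FPKM, with a log2 difference of 0.02 ± 0.10. RAP2.3 was at 625.5, 608.8 and 670.5 FPKM, the single gene of the 10 in which replicate 1 was not the highest of its group, with a log2 difference of 0.11 ± 0.10. PRT6 was at 13.43, 11.19 and 10.88 FPKM against 11.27 to 12.93 FPKM, with a log2 difference of -0.02 ± 0.10.

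The rgl2-13-labelled DOF6ioex libraries in estradiol differ from DOF6ioex mock in both genotype label and treatment, and this comparison shares its libraries with the comparisons above. None of the 10 genes was called, against 0.57% of all tested genes (0.453% higher and 0.117% lower), and 3 of the 10 (HRA1, LBD41 and HRE1) had an unadjusted limma p under 0.05 where 25.2% of all tested genes did. HRA1 and LBD41 were lower in every rgl2-13-labelled DOF6ioex library than in every mock library, and HRE1 and PRT6 were higher; of all tested genes 3.49% were lower without overlap and 27.3% higher. The median of the 10 genes was 0.02. HRA1 averaged 40.6 ± 12.3 FPKM in these libraries and 65.65 ± 4.99 FPKM in mock libraries (SD, n = 3 each), with a log2 difference of -0.72 ± 0.17, or -0.86 relative to the median of all genes, which was 0.14. LBD41 averaged 182.7 ± 46.5 FPKM and 273.3 ± 12.2 FPKM, with a log2 difference of -0.61 ± 0.14, or -0.75 relative to that median. PCO1 and PCO2 overlapped between the groups, with log2 differences of -0.11 ± 0.22 and -0.27 ± 0.16. HRE1 averaged 5.62 ± 1.61 FPKM and 3.73 ± 0.463 FPKM, with a log2 difference of 0.46 ± 0.16. Without replicate 1 of the rgl2-13-labelled DOF6ioex libraries, HRA1 (-0.94) and LBD41 (-0.80) passed the threshold, and both also passed with either of the other scalings.

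The mean levels of HRA1, LBD41, PCO1 and PCO2 stood in 1 order. They were lowest in DOF6ioex estradiol libraries, higher in the rgl2-13-labelled DOF6ioex libraries and highest in mock libraries. The step between the first 2 of these groups overlapped in all 4 genes, and for PCO1 and PCO2 so did the step between the rgl2-13-labelled DOF6ioex libraries and mock. Without replicate 1 of the rgl2-13-labelled DOF6ioex libraries the first step shrank. Its log2 difference went from 0.35 to 0.13 for HRA1 and from 0.45 to 0.24 for PCO2. It went from 0.42 to 0.15 for PCO1 and from 0.22 to 0.02 for LBD41. HRE1 and HRE2, which low oxygen also induces, did not follow this order of groups. Both had their highest mean in the rgl2-13-labelled DOF6ioex libraries, at 5.62 and 8.12 FPKM, beside mock means of 3.73 and 7.35 FPKM. HRE1 and PRT6 were lowest in mock libraries, without overlap with either other group, and for RAP2.12, RAP2.2, RAP2.3 and HRE2 no pair of groups separated.

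**Figure D3:**
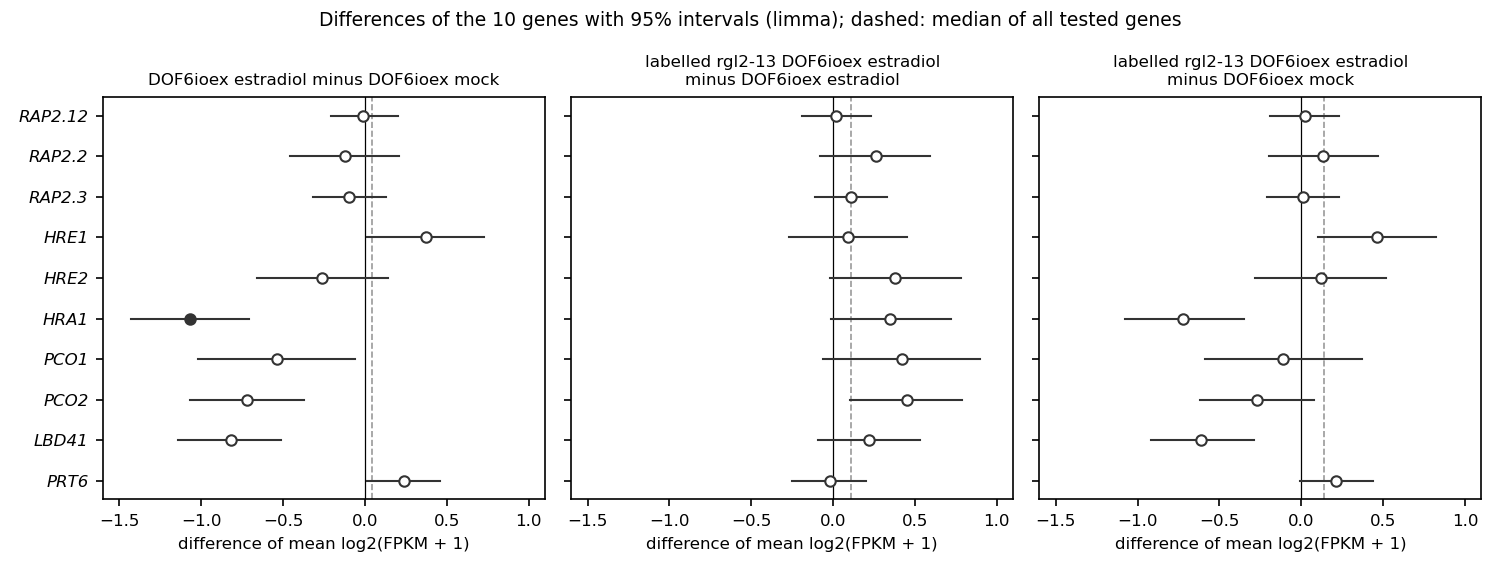
Difference of mean log2(FPKM + 1) for each of the 10 genes with its 95% interval in the 3 comparisons, first group minus second as titled; the filled point is the 1 gene past the adjusted threshold, and the dashed line is the median of all tested genes (0.04, 0.11 and 0.14). In the first panel the intervals of HRA1, LBD41, PCO2 and PCO1 lie left of 0 and those of HRE1 and PRT6 just right of it, in the second that of PCO2 lies right of 0, and in the third those of HRA1 and LBD41 lie left of 0 and that of HRE1 right of it.

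Other genes that low oxygen is widely reported to raise were then counted, 47 genes without the 10 above, of which 39 passed the filter. This list, like the later ones, was written with earlier results of these data known. Its counts, medians and p-values therefore describe these libraries and are no independent support. Between DOF6ioex estradiol and mock libraries 10 of the 39 fell and none rose at a limma adjusted p under 0.05. Of all tested genes 0.124% fell and 0.0292% rose. In the list 33 of the 39 were lower in every estradiol library than in every mock library (84.6%, beside 4.31% of all tested genes). The median log2 difference of the 39 genes was -0.59, beside 0.04 over all tested genes. AT5G10040, which is among the 10 called genes of this list, and AT1G72940 reached 1 FPKM in mock libraries alone. They passed the filter only through the group where they were high, so the filter fixed that they were lower elsewhere. FTM1, which encodes a stearoyl-acyl carrier protein desaturase, was at 0.82, 1.34 and 1.49 FPKM in estradiol libraries and at 5.94, 5.83 and 4.73 FPKM in mock libraries. It fell by 1.56 ± 0.13 on the log2(FPKM + 1) scale (limma adjusted p = 0.000314). AT5G42200, annotated as a RING/U-box protein, fell by 1.32 ± 0.11 (limma adjusted p = 0.000327), with 0.51 ± 0.0624 FPKM in estradiol libraries and 2.79 ± 0.489 FPKM in mock libraries (SD, n = 3 each). AT4G10270 fell by 1.33 ± 0.20 (limma adjusted p = 0.0259), AT1G33055 by 1.22 ± 0.15 (limma adjusted p = 0.00595) and AT2G17850, a rhodanese family gene, by 1.20 ± 0.15 (limma adjusted p = 0.00973). PDC1, which encodes pyruvate decarboxylase at the entry to ethanol fermentation, was also among the 10 called genes of this list. It was at 33.67, 45.93 and 46.81 FPKM in estradiol libraries and 97.79, 95.4 and 91.56 FPKM in mock libraries (log2 difference -1.17 ± 0.16, limma adjusted p = 0.0165). ADH1, the alcohol dehydrogenase of the same route, averaged 452.4 ± 33.6 FPKM in estradiol libraries and 590.6 ± 37.5 FPKM in mock libraries (SD, n = 3 each) without overlap and did not pass (limma adjusted p = 0.206). HB1, a phytoglobin that scavenges nitric oxide, averaged 30.1 ± 6.91 FPKM in estradiol libraries and 60.4 ± 1.33 FPKM in mock libraries (SD, n = 3 each) and did not pass either (limma adjusted p = 0.126). The count of 10 became 25 without replicate 1 and 21 without replicate 2 of the rgl2-13-labelled DOF6ioex libraries, 4, 3 and 2 without DOF6ioex estradiol replicates 1, 2 and 3, and 4 and 3 without mock replicates 1 and 2.

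In the rgl2-13-labelled DOF6ioex libraries against DOF6ioex estradiol, 2 of the 39 low-oxygen genes rose and none fell at a limma adjusted p under 0.05. Of all tested genes 0.139% rose and 0.0219% fell. Without overlap 15 of the 39 were higher (38.5%, beside 15.8% of all tested genes). The median log2 difference of the 39 was 0.30, beside 0.11 over all tested genes. FTM1 was at 3.57, 3.63 and 3.7 FPKM in the rgl2-13-labelled DOF6ioex libraries and rose by 1.08 ± 0.13 (limma adjusted p = 0.00459) against its 0.82 to 1.49 FPKM in DOF6ioex estradiol libraries. AT4G33560, a wound-responsive family gene, rose by 0.84 ± 0.14 (limma adjusted p = 0.0461), with 2.43 ± 0.42 FPKM against 0.907 ± 0.205 FPKM (SD, n = 3 each). The call of AT4G33560 was lost, leaving 1, without replicate 1 or 3 of the rgl2-13-labelled DOF6ioex libraries, any DOF6ioex estradiol library or mock replicate 2 or 3. Against mock libraries, 6 of the 39 genes were lower in the rgl2-13-labelled DOF6ioex libraries and none higher at a limma adjusted p under 0.05. Of all tested genes 0.117% were called lower and 0.453% higher. The median log2 difference of the 39 was -0.42, beside 0.14 over all tested genes. Without overlap 19 of the 39 were lower (48.7%, beside 3.49% of all tested genes) and 1 was higher (2.56%, beside 27.3%). AT5G10040, which passed the filter through its mock libraries alone, had the largest difference. It averaged 0.343 ± 0.0902 FPKM in rgl2-13-labelled libraries and 1.72 ± 0.537 FPKM in mock libraries (SD, n = 3 each). The log2 differences of the others were those of AT5G42200 (-0.88), AT4G24110 (-0.87), AT1G33055 (-0.81), AT5G65207 (-0.74) and ADH1 (-0.55), and the limma adjusted p of the 6 ran over 0.00841 to 0.0381. ADH1 was at 423.2, 384 and 399.3 FPKM in the rgl2-13-labelled DOF6ioex libraries, below the 565.5 to 633.7 FPKM of mock libraries. That count of 6 became 18 without replicate 1 and 3 without replicate 3 of the rgl2-13-labelled DOF6ioex libraries, and 2, 1 and 2 without mock replicates 1, 2 and 3. Of the 8 low-oxygen genes that were not tested, AT5G45960 is not analysed here and the other 7, SUS1 and SUS4 for sucrose synthase among them, were low.

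**Figure D4:**
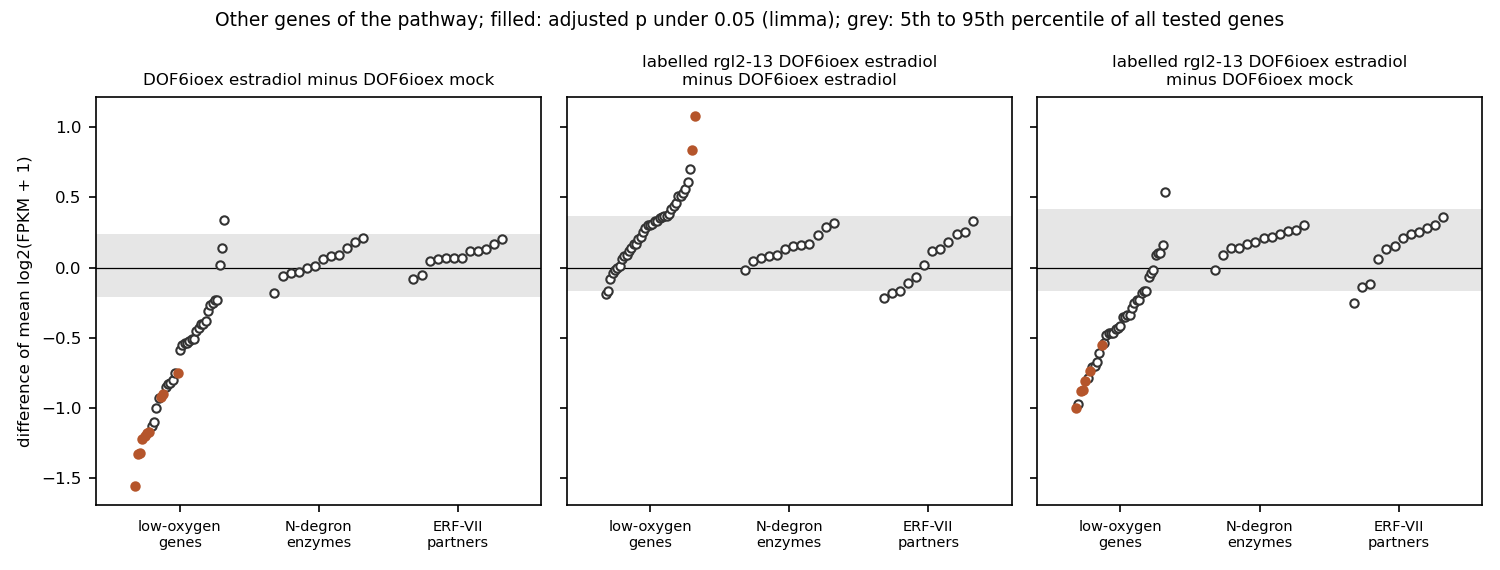
Difference of mean log2(FPKM + 1) of each tested gene on 3 lists (39 low-oxygen genes, 12 N-degron enzymes, 12 ERF-VII partners), ordered by size within each list, in the 3 comparisons; filled points passed an adjusted p under 0.05 in limma, and the grey band spans the 5th to 95th percentile of all tested genes. Low-oxygen genes run well below the band in the first panel, while the other lists stay near or within it.

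The enzymes that make and read the degradation signal were a second list, 12 genes that all passed the filter. They were the methionine aminopeptidases that expose the cysteine, PCO3 to PCO5, the arginyl transferases ATE1 and ATE2, and BIG, a large protein that is known to act beside PRT6. None of the 12 was called in any of the 3 comparisons by limma, and the unadjusted p was under 0.05 for 0 genes between DOF6ioex estradiol and mock, 2 between the rgl2-13-labelled DOF6ioex libraries and DOF6ioex estradiol and 3 between the rgl2-13-labelled DOF6ioex libraries and mock. The shares of all tested genes in these comparisons were 6.82%, 15.2% and 25.2%. The median log2 differences of the list were 0.04, 0.14 and 0.19 in these comparisons, beside 0.04, 0.11 and 0.14 over all tested genes. Between DOF6ioex estradiol and mock libraries the log2 differences farthest from 0 were those of BIG (0.21 ± 0.13) and MAP1C (0.18 ± 0.12), with groups that overlapped, and of ATE2 (-0.18 ± 0.11), the 1 gene of the 12 whose groups did not overlap. ATE1 averaged 7.08 ± 0.62 FPKM in the rgl2-13-labelled DOF6ioex libraries, 6.24 ± 0.523 FPKM in DOF6ioex estradiol libraries and 5.84 ± 0.346 FPKM in mock libraries (SD, n = 3 each). ATE2 was at 2.8 ± 0.17 FPKM, 2.04 ± 0.224 FPKM and 2.44 ± 0.353 FPKM, and its difference between the first 2 groups was 0.32 ± 0.11 (limma adjusted p = 0.236). In the same comparison MAP2A differed by 0.29 ± 0.12 (limma adjusted p = 0.287), and against mock the list was headed by MAP2A (0.30 ± 0.12) and BIG (0.27 ± 0.13).

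The third list held 13 genes of proteins that are known to bind, modify or share degradation with ERF-VII factors, or to be their targets in seeds, and 12 passed the filter. None was called by limma in any comparison, with 0, 4 and 5 genes at an unadjusted p under 0.05 in the comparisons of estradiol with mock in DOF6ioex, of rgl2-13-labelled seeds with DOF6ioex in estradiol, and of rgl2-13-labelled estradiol seeds with mock, beside 6.82%, 15.2% and 25.2% of all tested genes. The medians of the list were 0.07, 0.07 and 0.18 on the log2 scale, beside 0.04, 0.11 and 0.14 over all tested genes. ABI5 was at 219.3, 265.5 and 270.8 FPKM in the rgl2-13-labelled DOF6ioex libraries, 283.4, 283.2 and 285.5 FPKM in DOF6ioex estradiol libraries and 255.3, 268.9 and 295.2 FPKM in mock libraries. Its estradiol and mock values overlapped in DOF6ioex, with a log2 difference of 0.06 ± 0.10. TOR, a growth-regulating kinase, and MPK3, a stress-activated kinase, had the largest differences there (0.20 ± 0.12 and 0.17 ± 0.09). ABI5 was lower without overlap in the rgl2-13-labelled DOF6ioex libraries than in DOF6ioex estradiol libraries (-0.18 ± 0.10, limma adjusted p = 0.383). In that comparison 3 of the 12 genes were lower without overlap and 3 higher (25% each), beside 4.96% and 15.8% of all tested genes. KIN10, an energy-sensing kinase, and SINAT1, a RING ligase, headed the list between the rgl2-13-labelled DOF6ioex libraries and DOF6ioex estradiol (0.33 ± 0.12 and 0.25 ± 0.11). MED25, a Mediator subunit that is known to link RAP2.2 and RAP2.12 to the transcription machinery, was at 25.2 ± 1.62 FPKM in the rgl2-13-labelled DOF6ioex libraries and 19.4 ± 0.645 FPKM in mock libraries (SD, n = 3 each). The groups did not overlap, and 27.3% of all tested genes were likewise higher without overlap in this comparison. The MED25 difference of 0.36 ± 0.08, or 0.22 relative to the median of all genes, did not pass (limma adjusted p = 0.0673). SINAT1 followed at 0.30 ± 0.11.

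The genes whose profile over the 9 libraries lay nearest to those of HRA1, LBD41 and PCO2, the 3 of the 10 with the widest range of group means, were looked up among all tested genes. The measure was the root mean square difference of log2(FPKM + 1) values, each centred on its mean over the libraries. Nearest to HRA1 were AT2G17850 (0.087), AT1G33055 (0.108) and AT3G27220 (0.13), all 3 on the low-oxygen list. AT2G17850 was at 5.44, 2.8 and 3.81 FPKM in the rgl2-13-labelled DOF6ioex libraries, 2.43, 2.53 and 2.39 FPKM in DOF6ioex estradiol libraries and 7.41, 6.98 and 6.49 FPKM in mock libraries, again with replicate 1 high in the first group. Nearest to LBD41 were AT1G24580 (0.095), a RING/U-box gene that is not on the list, and the listed AT3G27220 (0.1) and AT4G10265 (0.102). Nearest to PCO2 were EXPA10 (0.076), an expansin gene not on the list, AT1G24580 (0.089) and the listed ASP2 (0.099), which encodes an aspartate aminotransferase. EXPA10 was at 9.19, 4.35 and 5.35 FPKM in the rgl2-13-labelled DOF6ioex libraries, 3.59, 4.64 and 4.46 FPKM in DOF6ioex estradiol libraries and 9.1, 7.99 and 6.98 FPKM in mock libraries. The 9 points of a profile share their libraries, so these values describe likeness in this set alone.

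The 250 bases before the first base of each annotated gene in TAIR10.1, not those before its coding start, were searched. Letters of the hypoxia-responsive promoter element (AAACCANNNGC, either strand) were found there for 3 of 47 low-oxygen genes (6.38%) and for 222 of 27443 protein-coding genes (0.809%). The core of the GCC box, GCCGCC, to which ERF proteins bind, was found in 3 of 47 (6.38%) and 513 of 27443 (1.87%). Neither was found in this window of the 10 genes, which says only that these letters are not there.

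The authors' deposited tables list genes past an absolute log2 ratio of 2 between single libraries, 228 genes for DOF6ioex estradiol against mock and 248 genes for the rgl2-13-labelled DOF6ioex libraries against DOF6ioex estradiol. None of the 10 genes is on either list in the authors' deposited tables. Of the low-oxygen genes, the authors' deposited table for estradiol against mock holds FTM1, AT4G33560, AT5G10040 and AT5G42200, and the other holds FTM1.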

How the data were processed

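The data are 9 RNA-seq libraries of seeds. The submitters' processing notes name HISAT as the aligner; no source used here gives its version, the genome build, the counting tool or its strand setting. Each deposited table holds the FPKM of a pair of libraries and the log2 ratio of that pair, per the file headers. In 1 deposited table the value columns carry the heading RPKM; the 3 DOF6ioex estradiol libraries, which stand in more than 1 table, were identical for every shared gene, so the values were treated as 1 unit. FPKM carries no depth, and depth was not estimated here, so no counting interval is given.

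Tables were joined to 22555 genes, with 16568 missing values set to 0.01 FPKM. The 13679 genes that reached 1 FPKM in 3 or more libraries were tested on log2(FPKM + 1) by limma (version 3.58.1, R version 4.3.3) with its variance trend, in 1 fit of all 9 libraries with no covariate; differences on this scale understate changes of low genes. Calls are at a Benjamini-Hochberg adjusted p under 0.05 over all 13679 genes. Standard errors and 95% intervals are limma's. The fit was tested on simulated data.

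The 10 genes and all gene lists were chosen with earlier results of these data known. Genes are named by rule: all 10, DOF6 and RGL2; per list and comparison up to 5 called genes with the largest differences, or 2 where none passed; and the 3 nearest profiles of 3 genes. AT3G45610 is DOF6 and AT3G03450 is RGL2. PDC1, ADH1, HB1, ATE1, ATE2 against mock, PCO3 to PCO5, ABI5 and CRU2 were named outside it, after their values were seen, as were AT4G33560 and AT5G10040 where they stand on the authors' lists. AT5G10040 and AT1G72940 were also named outside it for the way they passed the filter. Sequences, gene overlaps and the 250 bases before each annotated gene are from RefSeq TAIR10.1, in which 22230 genes matched a transcript. Alternatives were other pseudocounts, scalings, filters, libraries left out, a fit on 6 libraries and a replicate block.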

Additional observations from a re-analysis of the deposited data

How the results depend on the processing

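No called difference of the 10 genes changed sign under the alternatives run. Of the 10 genes, the number called between DOF6ioex estradiol and mock was 1; it was 0 with no filter on low values and with the replicate number as a block, 3 with median-of-ratios scaling, upper quartile scaling or a fit on the 6 libraries compared, and 0 to 3 with a library left out. Between the rgl2-13-labelled DOF6ioex libraries and DOF6ioex estradiol it was 0 under every alternative. Between the rgl2-13-labelled DOF6ioex libraries and mock it was 0, but 2 with median-of-ratios or upper quartile scaling, and 0 to 2 with a library left out. For the 3 pathway lists, in the same order of comparisons, the counts of 10, 2 and 6 became 2, 0 and 1 with no filter; 22, 1 and 15 with either scaling; 25, 1 and 3 with 6 libraries; 7, 1 and 1 with the replicate block; and ran over 2 to 25, 1 to 2 and 1 to 18 with a library left out. For all genes, 21, 22 and 78 became 4, 4 and 8 with no filter; 56, 26 and 141 with median-of-ratios scaling; 57, 26 and 140 with upper quartile scaling; 105, 7 and 18 with 6 libraries; 12, 11 and 12 with the replicate block; and ran over 5 to 90, 8 to 26 and 7 to 224 with a library left out. The split of the 78 was 62 higher and 16 lower; it was 66 and 75 with median-of-ratios scaling and 64 and 76 with upper quartile scaling. With either scaling the split of the 22, which was 19 higher and 3 lower, was 20 and 6. Same-numbered libraries did not pair (9 correlations of deviations from -0.41 to 0.25, 2 of them over 0.1, beside 8 of the 18 other pairs), so a call lost under the block is not read as a weaker effect. Without a filter more genes are tested, and the cause of the other moves was not tested. RAP2.12, RAP2.3, HRE1, HRE2, PCO1, PRT6 and RAP2.2 changed sign under some alternatives in comparisons where they were not called.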
